A study of Mus musculus with 9 samples.

Results

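The genes of the Wnt pathway described here were 57 of the 40213 gene symbols in the count tables of 9 mouse embryonic stem (ES) cell libraries. They were chosen by gene symbol, with earlier results of these data known. The set held 19 Wnt ligands, 10 Frizzled receptors, 4 Dkk and 4 Sfrp inhibitors, and 20 named co-receptors, feedback genes, relay proteins and nuclear factors. Of these, 42 reached a mean of at least 1 CPM in a group, where CPM is a counts-per-million value scaled by TMM, a normalization that aligns library compositions. The control was J1, an ES cell line of mouse, with 3 libraries. The other groups were 2 stable cell lines labelled Niwa, each with 3 libraries. One carried OCT4, the pluripotency factor (the OCT4 line), and the other carried EWS-OCT4, in which the RNA-binding protein EWS is joined to it (the fusion line, EWS-OCT4 in the plots). Both stable lines were given 1 µg/ml doxycycline to lower their own OCT4, and the labels name no doxycycline for J1. All 3 lines grew in ES cell medium with LIF, a cytokine that sustains self-renewal. Each group is a single line, so line, transgene and doxycycline cannot be told apart in a comparison with J1. The series asks whether the fusion can stand in for OCT4 in self-renewal.

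Wnt proteins are lipid-modified secreted ligands that bind Frizzled receptors together with the co-receptors Lrp5 and Lrp6. In the canonical branch, Dishevelled proteins then block a complex of Axin, Apc and Gsk3 that otherwise marks β-catenin for destruction, and stabilised β-catenin joins TCF/LEF factors on target genes. In mouse ES cells this branch is known for sustaining self-renewal, largely by relieving repression by Tcf7l1, while Wnt signals in the embryo also set up the primitive streak.

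The libraries held 21149358 to 24786305 counts each, and 48 of the 57 genes were among the 16562 that could be tested. Pou5f1, which encodes OCT4, had 569 ± 61.8 CPM in J1, 165 ± 2.61 in OCT4 cells and 26.8 ± 2.12 in fusion cells (mean ± SD, n = 3), and its counts do not separate an introduced from the endogenous sequence. All 11 ES cell markers had counts in every group, and their summed level was 4777 to 5079 CPM in J1, 3527 to 3604 in OCT4 cells and 3884 to 3995 in fusion cells. These sums mix directions. Zfp42 (1425, 429 and 758 CPM in J1, OCT4 and fusion cells) and Pou5f1 were lower in both stable lines. Nanog (261, 509 and 481 CPM) and Tfcp2l1 (232, 679 and 660 CPM) were higher in both. Changes below are edgeR quasi-likelihood log2 fold changes with their standard error (SE), and a gene is called at a Benjamini-Hochberg adjusted p under 0.05. Of the 11 ES cell markers, 2 were called higher and 7 lower in the OCT4 line than in J1. In the fusion line 2 were higher and 6 lower than in J1, and 4 higher and 2 lower than in the OCT4 line. The called shares were 81.8%, 72.7% and 54.5%, beside 67.0%, 61.9% and 66.5% of all tested genes. The labels do not say that the 3 libraries of a line came from separate cultures, so the p-values cover only how far these libraries spread. In bulk RNA, fewer cells of a type and less RNA per cell cannot be told apart.

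Against J1, the OCT4 line had more RNA of several Wnt ligands and less of the main Frizzled receptors and of the TCF/LEF factors Tcf7 and Lef1. Of the 48 tested genes, 19 were higher and 18 lower, against a background of 67.0% of all tested genes called in this comparison (34.3% higher and 32.7% lower). At 77.1%, the called share of the Wnt genes was not far above that background. Their median log2 fold change was 0.04, beside 0.006 over all genes tested. The fusion line against J1 had 22 higher and 17 lower, or 81.2% called, against a background of 61.9% (30.3% higher and 31.6% lower), with a median of 0.32 beside 0.003. The fusion line against the OCT4 line had 18 higher and 18 lower, or 75.0% called, against a background of 66.5% (31.9% higher and 34.6% lower), with a median of 0.04 beside -0.04. At 2-fold or more, 24, 21 and 19 of the 48 were called in these 3 comparisons. Of all 16562 tested genes, 4389, 3403 and 4026 were (26.5%, 20.5% and 24.3%), so at this bound the share of the Wnt genes was above each background. Both comparisons with J1 use the same 3 J1 libraries. The counts of called genes by role and by list below are to be read beside these backgrounds.

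**Figure D1:**
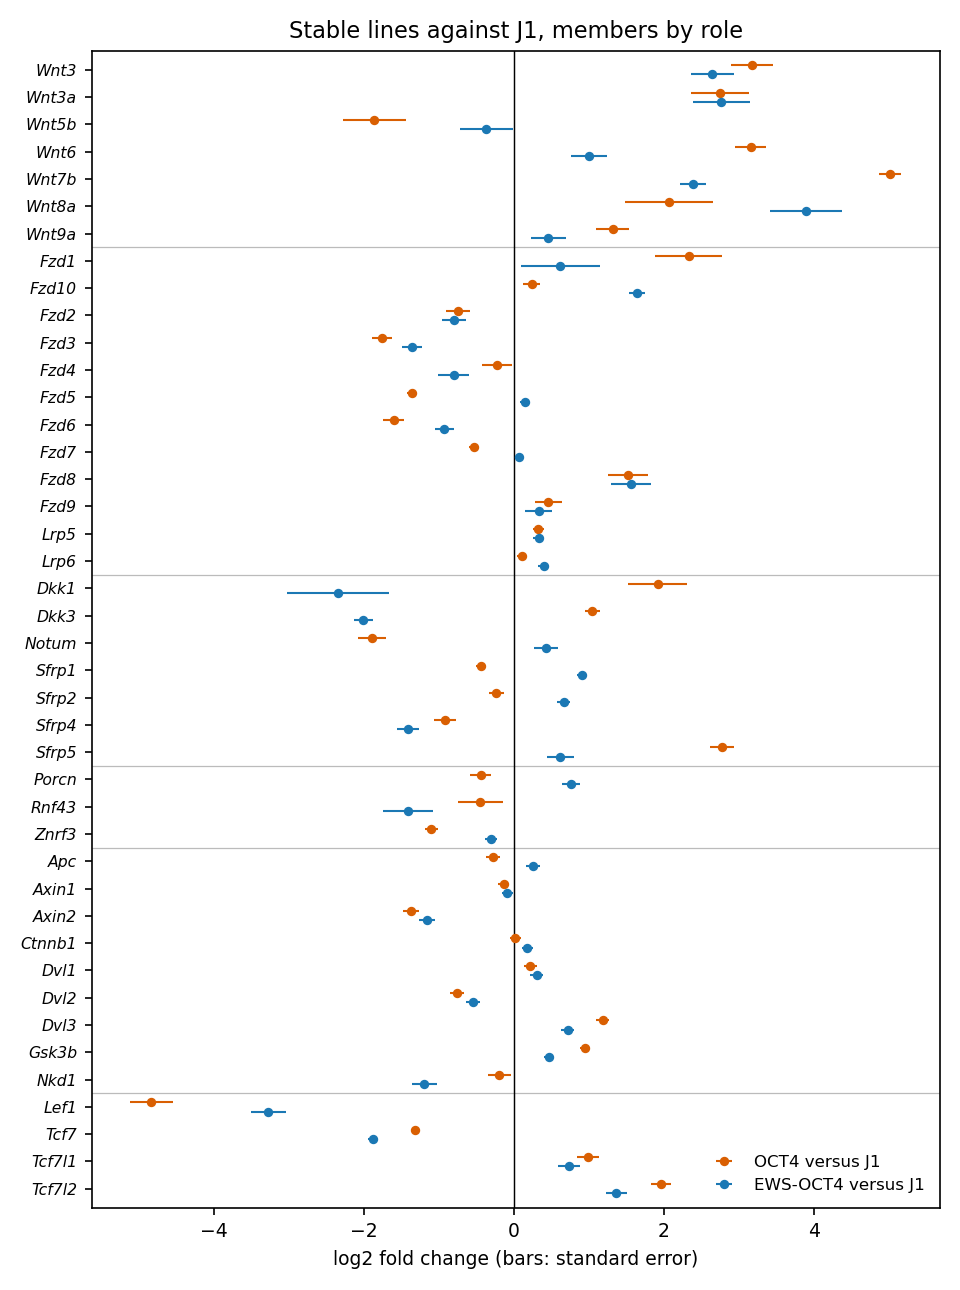
Log2 fold change against J1 (x axis) of the 42 Wnt genes that average 1 CPM or more in a group, in the OCT4 line (orange) and the fusion line (blue), with bars for the standard error and grey lines between roles. From the top the roles are ligands, receptors, secreted inhibitors, surface feedback and maturation, cytoplasmic relay and nuclear factors; Wnt7b is farthest to the right at 5.02 and Lef1 farthest to the left at -4.84, both in the OCT4 line.

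Known Wnt responses act through TCF/LEF sites, so promoter windows of these genes were searched for the core letters CTTTGA on both strands. RefSeq windows on build GRCm38.p6, from 250 bases before to 50 bases after a transcript start, were at hand for 38 of the 57 genes, in 48 windows. A match was found in 7 of the 48 windows, or 14.6%, beside 16% of all 32851 windows of the same length. The longer CTTTGAT, which contains the shorter letters, was in 3 of them (6.25%), beside 3.73% of all windows. Dkk1, a secreted Lrp blocker, and Sp5, a transcription factor gene widely used as a Wnt readout, each held CTTTGA at 2 places and are shown, with the matches on either strand in capitals. Lef1 also held it at 2 places, in the window of a start within the gene that is not shown. The other matches lay in windows of Fzd1, Gsk3b, Wnt11 and Wnt5b, and CTTTGAT lay in those of Sp5, Wnt11 and Wnt5b. The windows at hand for Axin2, Nkd1 and Rnf43, described below as Wnt-induced or as a Wnt marker, held no match. The octamer ATGCAAAT, letters bound by OCT4 and other POU factors, was searched after the values were seen and lay in 1 window, that of the secreted inhibitor Sfrp2 (2.08%, beside 1.74% of all windows). That window is the third sequence. Its octamer lies on the opposite strand, so the capitals there read ATTTGCAT, the reverse complement. The windows lie at chr19:30549447-30549746 on the minus strand (Dkk1), chr2:70474673-70474972 on the plus strand (Sp5) and chr3:83766071-83766370 on the plus strand (Sfrp2), and all are printed 5′ to 3′ in the direction of transcription.
Dkk1: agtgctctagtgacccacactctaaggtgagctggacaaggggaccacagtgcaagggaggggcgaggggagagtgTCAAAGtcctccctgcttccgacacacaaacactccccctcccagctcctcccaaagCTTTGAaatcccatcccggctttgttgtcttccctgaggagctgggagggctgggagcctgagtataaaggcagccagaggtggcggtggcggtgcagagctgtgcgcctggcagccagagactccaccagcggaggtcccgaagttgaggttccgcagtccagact
Sp5: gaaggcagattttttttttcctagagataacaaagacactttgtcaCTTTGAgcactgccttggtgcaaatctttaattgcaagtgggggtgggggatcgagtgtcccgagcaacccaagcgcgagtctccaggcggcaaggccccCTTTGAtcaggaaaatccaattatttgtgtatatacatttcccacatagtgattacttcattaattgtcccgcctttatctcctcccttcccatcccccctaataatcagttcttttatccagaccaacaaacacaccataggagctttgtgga
Sfrp2: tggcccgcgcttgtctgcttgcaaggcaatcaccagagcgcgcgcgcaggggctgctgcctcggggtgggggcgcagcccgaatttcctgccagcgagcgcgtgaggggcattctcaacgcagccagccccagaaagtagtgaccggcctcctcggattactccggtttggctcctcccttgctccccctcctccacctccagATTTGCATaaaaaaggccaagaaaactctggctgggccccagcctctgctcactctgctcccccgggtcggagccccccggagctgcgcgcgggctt
In Dkk1 the matches begin 174 and 117 bases before the start, in Sp5 they begin 204 and 104 bases before it, and the Sfrp2 octamer begins 47 bases before it. The second Sp5 match is followed by t and so also spells CTTTGAT. These are letter matches only, and no binding was measured.

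The ligands rose most in the OCT4 line. Of the 19 Wnt genes, 12 could be tested, and 7 were higher and 2 lower in the OCT4 line than in J1. Their median log2 fold change was 1.27. In the fusion line 5 were higher and 3 lower than in J1, and 3 were higher and 6 lower than in the OCT4 line. The called shares of 75.0%, 66.7% and 75.0% were near the backgrounds of 67.0%, 61.9% and 66.5%. Summed over all 19 and divided by exon length, ligand RNA was 2.30 to 3.34 CPM per kb in J1, 14.4 to 15.8 in OCT4 cells and 5.32 to 6.33 in fusion cells, with no overlap between groups.

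Wnt7b, a ligand needed in the embryo for fusion of the chorion with the allantois, made up most of this difference together with Wnt6. Its 3 libraries held 0.964, 1.08 and 0.705 CPM in J1, 28.7, 30.5 and 31.3 in OCT4 cells and 4.38, 5.67 and 4.55 in fusion cells. All OCT4 libraries lay above all EWS-OCT4 libraries, and these above all J1 libraries. Wnt7b was 32.4-fold higher in the OCT4 line than in J1 (log2 fold change 5.02, SE 0.148, edgeR adjusted p 1.32e-14). The fusion line was 5.24-fold above J1 (edgeR adjusted p 3.61e-09) and 6.19-fold below the OCT4 line (edgeR adjusted p 2.69e-12). An antisense gene, AU022754, shares 324 exon bases with Wnt7b. It had 23 counts in all libraries together beside 2438 for Wnt7b.

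Wnt6, a ligand known from extraembryonic and epithelial tissues, followed the same order of groups. It held 1.29, 1.64 and 0.705 CPM in J1, 10.6, 12.5 and 9.91 in OCT4 cells and 2.21, 2.86 and 2.32 in fusion cells. The 3 groups did not overlap. Wnt6 was 8.92-fold higher in the OCT4 line than in J1 (log2 fold change 3.16, SE 0.209, edgeR adjusted p 3.99e-10) and 4.45-fold lower in the fusion line than in the OCT4 line (edgeR adjusted p 2.3e-08). Per length, Wnt7b (6.16 ± 0.278 CPM per kb) and Wnt6 (5.02 ± 0.602) were the highest of the 19 ligands in the OCT4 line. In the fusion line Wnt6 (1.12 ± 0.158), Wnt7b (0.993 ± 0.144) and Wnt8a (0.884) lay close together.

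Wnt9a held 1.45, 1.72 and 0.94 CPM in J1, 3.37, 3.75 and 3.23 in OCT4 cells and 2.16, 1.9 and 1.64 in fusion cells. The OCT4 libraries were the highest, while those of J1 and EWS-OCT4 overlapped. The rise in the OCT4 line over J1 was 2.49-fold (edgeR adjusted p 4.57e-05), and the fusion line did not pass against J1 (log2 fold change 0.46, SE 0.236, edgeR adjusted p 0.101). Without J1 library 2 it passed, at 0.65 (edgeR adjusted p 0.0383), as it did with the chromosome median as an offset, at 0.92 (edgeR adjusted p 0.00302).

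Wnt3 and Wnt3a, ligands of the primitive streak, were near the bottom of detection in J1 and higher in both stable lines. Wnt3 had means of 0.319 CPM in J1, 2.96 in OCT4 cells and 2.05 in fusion cells, from 23, 200 and 138 counts. Wnt3a had 0.18, 1.25 and 1.27 CPM, from 13, 85 and 86 counts. Against J1, Wnt3 was 9.05-fold higher in the OCT4 line and 6.25-fold in the fusion line, and Wnt3a was 6.72-fold and 6.81-fold higher, with edgeR adjusted p values between 1.59e-08 and 6.92e-06. Wnt8a, another ligand of the early embryo, was highest in the fusion line. It had means of 0.0956 CPM in J1, 0.423 in OCT4 cells and 1.54 in fusion cells, and it was 3.56-fold higher in the fusion line than in the OCT4 line (edgeR adjusted p 0.000338). Wnt5b, a ligand mostly linked to β-catenin-independent signalling, went the other way in the OCT4 line, with 1.3 CPM in J1, 0.351 in OCT4 cells and 1.01 in fusion cells. Its fall in the OCT4 line was 3.64-fold (edgeR adjusted p 0.000754).

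The remaining 12 ligands stayed below 1 CPM in every group. Wnt11 (0.991), Wnt5a (0.918) and Wnt16 (0.796) had the highest group means among them. Just inside that bound were Dkk1 (1.24), Wnt3a (1.27) and Wnt5b (1.3). Wnt1, a ligand of the midbrain, had no count in any library.

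**Figure D2:**
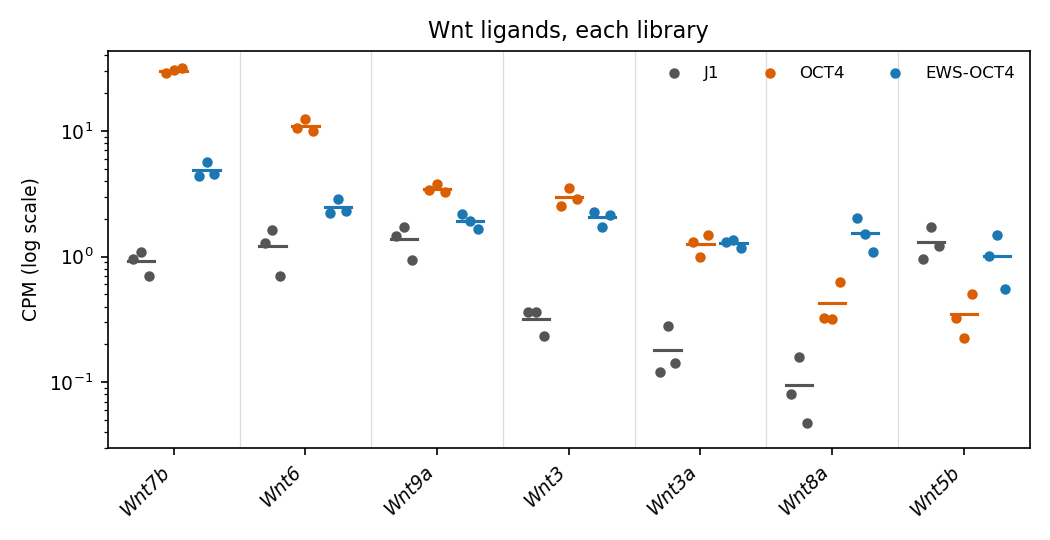
CPM (log axis) of the 7 Wnt ligands that average 1 CPM or more in a group; each point is a library, short lines are the means of 3, and colours are J1 (grey), the OCT4 line (orange) and the fusion line (blue). Wnt7b, Wnt6 and Wnt9a are highest in the OCT4 line, Wnt8a in the fusion line, and Wnt5b is lowest in the OCT4 line.

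Summed trophectoderm markers followed the group order of Wnt7b and Wnt6. All 11 had counts in every group, and their summed level was 155 to 187 CPM in J1, 558 to 599 in OCT4 cells and 257 to 271 in fusion cells. Against J1, 9 of the 11 were higher and 1 lower in the OCT4 line, and 7 were higher and 2 lower in the fusion line. Against the OCT4 line, 2 were higher and 7 lower in the fusion line. The called shares were 90.9%, 81.8% and 81.8%, beside backgrounds of 67.0%, 61.9% and 66.5%. Hand1 (1.78, 78.2 and 2.14 CPM in J1, OCT4 and fusion cells) and Eomes were not called in the fusion line against J1. Elf5 had its highest mean in the fusion line (0.292, 0.417 and 0.686 CPM). Primitive endoderm markers summed to 241 to 253, 397 to 433 and 326 to 338 CPM, also with all 11 detected, but most of the 10 tested members did not follow these sums. In the OCT4 line 2 were higher and 5 lower than in J1 (median log2 fold change -0.43), and in the fusion line 2 were higher and 7 lower (median -1.55). The basement membrane genes Col4a1 (72.5, 313 and 25.6 CPM) and Lama1 (129, 75.8 and 294 CPM) made up much of the sums. The 7 early mesoderm markers summed to 6.79 to 7.26, 14.0 to 16.1 and 6.45 to 8.72 CPM. Of the 4 tested, 2 were higher and 2 lower in the OCT4 line than in J1, and 0 of 4 were called in the fusion line against J1. Eomes, which also stands in the trophectoderm list, went from 3.91 CPM in J1 to 12 in the OCT4 line, where T (1.08 to 0.281 CPM) and Mixl1 (0.855 to 0.474 CPM) were lower. Neural markers summed to 97.0 to 121 CPM in J1, 116 to 118 in OCT4 cells and 110 to 111 in fusion cells, where Neurog2 had no count, and of the 5 tested 3 were higher and 2 lower in each stable line than in J1. Fibroblast markers, which feeder cells would carry, were lowest in the fusion line, at 33.0 to 37.6 CPM beside 100 to 117 in J1 and 75.8 to 80.9 in the OCT4 line, and of the 7 tested 6 were lower in the fusion line than in J1. Of the 13, Dcn, Lum and Twist2 had no count in J1, Lum had none in OCT4 cells and Dcn none in fusion cells. The part of any of these cell types in the Wnt gene differences was not tested.

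Summed Frizzled receptor RNA was lowest in the OCT4 line and highest in the fusion line. Per length over the 10 genes it was 50.3 to 52.4 CPM per kb in J1, 29.6 to 31.1 in OCT4 cells and 56.8 to 59.5 in fusion cells, without overlap. Fzd10 made up most of the rise from J1 to the fusion line. It went from 2.67 ± 0.259 to 8.33 ± 0.335 CPM per kb, beside means of 51.6 and 58.3 for the sum. Among the 12 receptor and co-receptor genes, 4 were higher and 5 lower in the OCT4 line than in J1, 4 were higher and 4 lower in the fusion line than in J1, and 6 were higher and 2 lower in the fusion line than in the OCT4 line. In the fusion line against J1, those higher were Fzd8, Fzd10, Lrp5 and Lrp6. Those lower were Fzd2, Fzd3, Fzd6 and Fzd4, the last with a log2 fold change of -0.81 (edgeR adjusted p 0.00234). The called shares of 75.0%, 66.7% and 66.7% were near the backgrounds of 67.0%, 61.9% and 66.5%.

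Fzd5 and Fzd7 were the leading Frizzled receptors in all groups when compared per length. Fzd5, a receptor for canonical ligands, held 149, 154 and 142 CPM in J1, 54.3, 61.3 and 57.9 in OCT4 cells and 164, 168 and 159 in fusion cells. Every OCT4 library lay far below the other 6. Fzd5 fell 2.57-fold from J1 to the OCT4 line (log2 fold change -1.36, SE 0.0681, edgeR adjusted p 1.04e-11) and was 2.83-fold higher in the fusion line than in the OCT4 line (edgeR adjusted p 3.87e-12). The fusion line did not pass against J1 (log2 fold change 0.14, SE 0.0657, edgeR adjusted p 0.0734), although the groups did not overlap. Without J1 library 2 it passed, at 0.17 (edgeR adjusted p 0.0379), as it did with DESeq2 (adjusted p 0.0448) and with the chromosome median as an offset (edgeR adjusted p 0.00233). Fzd7, a receptor active in pluripotent cells, had means of 94.4 ± 1.55, 65 ± 0.99 and 98.5 ± 3.8 CPM and fell 1.45-fold in the OCT4 line (edgeR adjusted p 5.55e-07). Per length, Fzd7 (14.3 ± 0.218 CPM per kb) stood above Fzd5 (8.37 ± 0.51) in the OCT4 line. In J1 they were close, at 20.8 ± 0.342 and 21.5 ± 0.815, and in the fusion line they stood at 21.7 ± 0.838 and 23.7 ± 0.649.

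Fzd10 was the one Frizzled that set the fusion line apart from both others by more than 2-fold. It held 7.75, 8.86 and 9.4 CPM in J1, 11.4, 9.31 and 9.83 in OCT4 cells and 28.3, 26.8 and 26.2 in fusion cells. J1 and OCT4 libraries overlapped, and all EWS-OCT4 libraries were higher. The rise was 3.12-fold over J1 (log2 fold change 1.64, SE 0.102, edgeR adjusted p 3.58e-10) and 2.65-fold over the OCT4 line (edgeR adjusted p 1.43e-09). The OCT4 line against J1 gave 0.24 (edgeR adjusted p 0.0653), and 0.30 without OCT4 library 2 (edgeR adjusted p 0.0394).

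Fzd3 and Fzd6, receptors best known from planar cell polarity, fell in both stable lines. Fzd3 held 21.3, 15.2 and 18.3 CPM in J1, 5.26, 5.87 and 5 in OCT4 cells and 7.16, 7.92 and 6.15 in fusion cells. Fzd6 held 10.9, 9.38 and 9.21 CPM in J1, 3.32, 3.12 and 3.23 in OCT4 cells and 5.63, 4.5 and 5.39 in fusion cells. For both genes the J1 libraries were the highest and the OCT4 libraries the lowest, with no overlap. Against J1, Fzd3 fell 3.4-fold in the OCT4 line and 2.58-fold in the fusion line, and Fzd6 fell 3.05-fold and 1.9-fold, with edgeR adjusted p values from 3.48e-09 to 9.3e-06.

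Of the low receptors, Fzd8 rose 2.88-fold in the OCT4 line and 2.94-fold in the fusion line over J1, from 0.671 CPM to 1.94 and 1.99 (edgeR adjusted p 6.72e-05 and 6.75e-05). Fzd1 rose 5.03-fold in the OCT4 line, from 0.298 to 1.56 CPM (edgeR adjusted p 0.000171). J1 library 2 held most of the J1 counts of Fzd1, at 0.638 CPM beside 0.161 and 0.094. Without it the log2 fold change of Fzd1 in the OCT4 line moved from 2.33 to 3.53, and that in the fusion line moved from 0.62 (edgeR adjusted p 0.322) to 1.83 (edgeR adjusted p 0.0101). Fzd2, which lies on chromosome 11, had 4.24, 2.52 and 2.42 CPM. The co-receptors moved little: Lrp6 had 117 ± 8.44, 127 ± 4.33 and 154 ± 7.31 CPM and Lrp5 had 54 ± 6.01, 67.7 ± 1.43 and 67.7 ± 1.34. Lrp6 rose 1.31-fold in the fusion line over J1 (edgeR adjusted p 9.88e-05), and Lrp5 rose 1.25-fold in each stable line (edgeR adjusted p 0.000996 and 0.00114).

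The secreted inhibitors split between the stable lines. All 7 tested were called in all 3 comparisons, 3 higher and 4 lower in the OCT4 line than in J1, 4 higher and 3 lower in the fusion line than in J1, and 3 higher and 4 lower in the fusion line than in the OCT4 line. Of all tested genes, 67.0%, 61.9% and 66.5% were called in these comparisons, and the share called in all 3 was not counted. Sfrp proteins bind Wnt ligands outside the cell. Their summed RNA per length was 27.0 to 28.1 CPM per kb in J1, 27.6 to 29.2 in OCT4 cells and 44.7 to 47.5 in fusion cells.

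Sfrp1 accounted for most of that rise. It held 74.6, 79.7 and 79.5 CPM in J1, 58, 55.9 and 58.4 in OCT4 cells and 151, 147 and 142 in fusion cells. The groups did not overlap. Sfrp1 was 1.88-fold higher in the fusion line than in J1 (log2 fold change 0.91, SE 0.0628, edgeR adjusted p 1.45e-09) and 2.55-fold higher than in the OCT4 line (edgeR adjusted p 6.43e-12). Its fall of 1.36-fold in the OCT4 line (log2 fold change -0.44, edgeR adjusted p 8.7e-06) was close to the median of tested genes averaging 5 CPM or more on its chromosome, 8, which was -0.49 in that comparison. With the chromosome median taken out as an offset, a setting chosen after seeing the data, the value was 0.06 (edgeR adjusted p 0.435). Sfrp2, whose promoter window holds the octamer shown above, had 13.4 ± 0.981, 11.4 ± 0.841 and 21.3 ± 0.469 CPM. It was 1.58-fold higher in the fusion line than in J1 (edgeR adjusted p 6.41e-06) and 1.86-fold higher than in the OCT4 line (edgeR adjusted p 1.65e-07). Its lower level in the OCT4 line than in J1 (log2 fold change -0.23, edgeR adjusted p 0.0379) was not called without J1 library 2 (-0.175) or without OCT4 library 2 or 3 (-0.188 and -0.215). It was also not called with DESeq2 (adjusted p 0.0668), without the low-count filter (edgeR adjusted p 0.0556) or with only the 6 libraries compared (edgeR adjusted p 0.0662).

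Sfrp5, an inhibitor known from early endoderm, was highest in the OCT4 line. It held 3.13, 1.8 and 2.16 CPM in J1, 14.8, 16.3 and 17.8 in OCT4 cells and 3.85, 3.51 and 3.58 in fusion cells. Each OCT4 library was above every other library. Sfrp5 was 6.88-fold higher in the OCT4 line than in J1 (log2 fold change 2.78, SE 0.161, edgeR adjusted p 6.82e-11) and 4.48-fold lower in the fusion line than in the OCT4 line (edgeR adjusted p 1.23e-09). The fusion line was also above J1, without overlap (log2 fold change 0.62, SE 0.183, edgeR adjusted p 0.00718). Its share of Sfrp RNA per length was 28.0% to 32.1% in the OCT4 line, beside 3.37% to 6.11% in J1 and 4.0% to 4.26% in the fusion line.

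Sfrp4 held 9.64, 8.82 and 8.74 CPM in J1, 4.2, 5.01 and 5.17 in OCT4 cells and 3.56, 3.94 and 2.74 in fusion cells. J1 was highest and the fusion line lowest, with no overlap. Against J1 it fell 1.89-fold in the OCT4 line (edgeR adjusted p 2.18e-05) and 2.66-fold in the fusion line (edgeR adjusted p 3.21e-07). The difference between the stable lines, -0.49 on the log2 scale (edgeR adjusted p 0.011), was -0.35 without EWS-OCT4 library 3 (edgeR adjusted p 0.0781).

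Dkk3, a secreted protein of the Dickkopf family whose action on Wnt signalling is less settled than that of Dkk1, ran in opposite directions in the stable lines. It held 11.8, 10.2 and 10.4 CPM in J1, 21.1, 22.9 and 22.5 in OCT4 cells and 2.36, 2.6 and 3.03 in fusion cells. The 3 groups were far apart. Dkk3 rose 2.06-fold in the OCT4 line (log2 fold change 1.04, SE 0.0999, edgeR adjusted p 5.39e-08), fell 4.03-fold in the fusion line (log2 fold change -2.01, SE 0.125, edgeR adjusted p 3.8e-10) and was 8.29-fold lower in the fusion line than in the OCT4 line (edgeR adjusted p 6.5e-13). Dkk1, whose promoter window is printed above, had 23, 84 and 4 counts over the 3 libraries of J1, OCT4 and fusion cells. Its mean rose from 0.33 to 1.24 CPM in the OCT4 line (log2 fold change 1.92, SE 0.398, edgeR adjusted p 0.000369), and the fusion line stood 4.27 lower than the OCT4 line on the log2 scale (log2 fold change -4.27, SE 0.549, edgeR adjusted p 2.43e-06).

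Notum, a secreted enzyme that strips the lipid from Wnt ligands and is itself induced by Wnt signals, held 7.91, 8.26 and 7.8 CPM in J1, 2.86, 1.4 and 2.18 in OCT4 cells and 12.5, 9.61 and 10.3 in fusion cells. The groups did not overlap. It fell 3.72-fold in the OCT4 line (log2 fold change -1.9, SE 0.187, edgeR adjusted p 7.56e-08) and was 5-fold higher in the fusion line than in the OCT4 line (log2 fold change 2.32, edgeR adjusted p 5.27e-09). The fusion line was 1.35-fold above J1 (log2 fold change 0.43, edgeR adjusted p 0.024). That last call was lost without EWS-OCT4 library 1, at 0.33 (edgeR adjusted p 0.121), and without J1 library 3, at 0.42 (edgeR adjusted p 0.0653). Annotated antisense genes share 708 and 210 exon bases with Notum. Opposite-strand genes also share exon bases with Fzd5 (1233), Lef1 (1208), Ctnnb1 (759), Sfrp2 (347) and Axin2 (209), and whether counting used strand is not given in the sources used here.

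**Figure D3:**
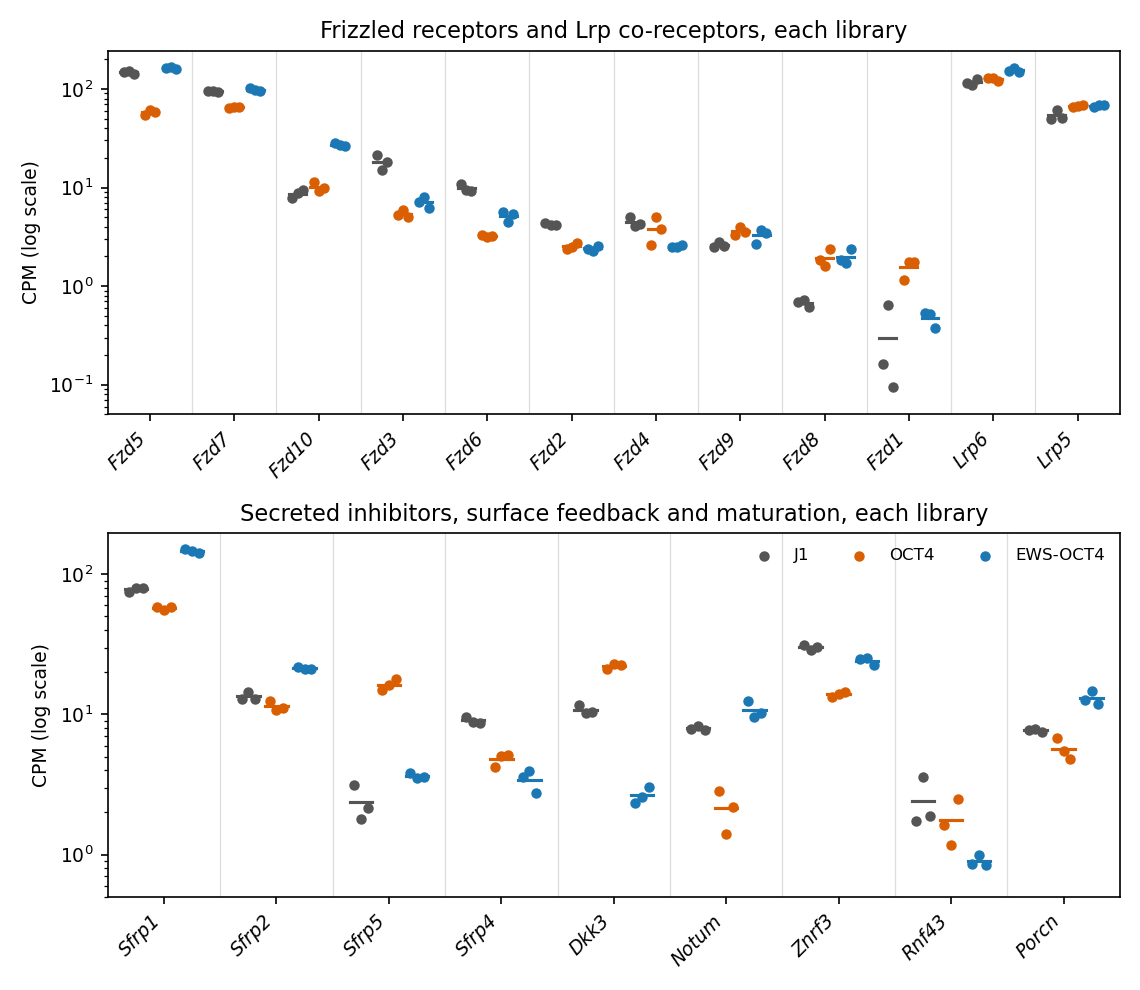
CPM (log axes) per library of the Frizzled receptors and Lrp co-receptors (upper panel) and of the secreted inhibitors other than Dkk1 with the surface genes Znrf3, Rnf43 and Porcn (lower panel); points are libraries, short lines the means of 3, in grey for J1, orange for the OCT4 line and blue for the fusion line. The OCT4 libraries are lowest for Fzd5, Fzd7, Notum and Znrf3 and highest for Sfrp5 and Dkk3, while the EWS-OCT4 libraries are highest for Fzd10, Sfrp1 and Sfrp2.

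Znrf3 and Rnf43 are membrane E3 ligases that remove Frizzled receptors from the cell surface and are themselves Wnt-induced. Znrf3 held 31.2, 28.8 and 30 CPM in J1, 13.4, 14.1 and 14.4 in OCT4 cells and 24.9, 25.1 and 22.6 in fusion cells. The OCT4 libraries were the lowest and those of J1 the highest, with no overlap. Znrf3 fell 2.15-fold in the OCT4 line (log2 fold change -1.1, SE 0.083, edgeR adjusted p 2.18e-09) and was 1.73-fold higher in the fusion line than in the OCT4 line (edgeR adjusted p 2.34e-07). Its 1.24-fold fall in the fusion line (log2 fold change -0.31, edgeR adjusted p 0.00249) was smaller than the chromosome 11 median of -0.46, and with that median as an offset the value was 0.15 (edgeR adjusted p 0.122). Rnf43 was low, with 2.4 ± 1.03, 1.76 ± 0.663 and 0.901 ± 0.0826 CPM, and fell 2.66-fold in the fusion line against J1 (edgeR adjusted p 0.00124).

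Porcn, the acyltransferase that adds the lipid Wnt ligands need for secretion, held 7.79, 7.9 and 7.47 CPM in J1, 6.74, 5.51 and 4.79 in OCT4 cells and 12.7, 14.7 and 11.9 in fusion cells. It was thus lowest in the line with the most ligand RNA, and the groups did not overlap. Porcn was 1.69-fold higher in the fusion line than in J1 (edgeR adjusted p 5.05e-05) and 2.31-fold higher than in the OCT4 line (log2 fold change 1.21, SE 0.131, edgeR adjusted p 3.04e-07). The OCT4 line lay 1.36-fold below J1 (log2 fold change -0.45, edgeR adjusted p 0.00753), and without OCT4 library 3 the value was -0.33 (edgeR adjusted p 0.0531). Porcn is X-linked, and the median of tested X-linked genes averaging 5 CPM or more went the other way, at 0.63 in the OCT4 line against J1 and -0.45 in the fusion line against the OCT4 line.

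In the relay, 3 of 9 genes were higher and 3 lower in the OCT4 line than in J1, 5 were higher and 3 lower in the fusion line than in J1, and 2 were higher and 3 lower in the fusion line than in the OCT4 line. The called shares were 66.7%, 88.9% and 55.6%, beside backgrounds of 67.0%, 61.9% and 66.5%. Ctnnb1, which encodes β-catenin, moved least of the relay genes called in the 2 comparisons of the fusion line. It held 559, 486 and 501 CPM in J1, 546, 517 and 502 in OCT4 cells and 597, 580 and 574 in fusion cells. J1 and OCT4 libraries overlapped, and the EWS-OCT4 libraries were all higher. The OCT4 line did not differ from J1 beyond the spread (log2 fold change 0.02, SE 0.0698, edgeR adjusted p 0.841). The fusion line was 1.13-fold above J1 (log2 fold change 0.18, edgeR adjusted p 0.0335) and 1.12-fold above the OCT4 line (0.16, edgeR adjusted p 0.0489). Against J1 the call was lost without any 1 of the EWS-OCT4 libraries 1, 2 and 3 (0.18, 0.20 and 0.19) and without J1 library 2 or 3 (0.14 and 0.16). Against the OCT4 line it was lost without EWS-OCT4 library 1, 2 or 3 (0.17, 0.19 and 0.18) or OCT4 library 2 or 3 (0.16 and 0.14). Both calls were also lost with upper-quartile scaling (edgeR adjusted p 0.106 and 0.12), with the 5 CPM minimum (0.0988 and 0.128) and with the chromosome median as an offset (0.598 and 0.941), and the first with only the 6 libraries compared (0.0549). Ctnnb1 lies on chromosome 9, whose median was 0.24 in the fusion line against J1, and as RNA it does not report the protein's stability.

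Axin2, a scaffold of the destruction complex that is widely read as a marker of Wnt/β-catenin activity, fell in both stable lines. It held 16.9, 18.8 and 19.1 CPM in J1, 6.28, 7.5 and 7.27 in OCT4 cells and 8.22, 8.09 and 8.17 in fusion cells. J1 stood apart, and the EWS-OCT4 libraries lay just above the OCT4 libraries. Axin2 fell 2.6-fold in the OCT4 line (log2 fold change -1.38, SE 0.104, edgeR adjusted p 2.16e-09) and 2.24-fold in the fusion line (log2 fold change -1.16, SE 0.102, edgeR adjusted p 3.06e-08). The difference between the stable lines did not pass (log2 fold change 0.22, SE 0.11, edgeR adjusted p 0.0919). Axin1, its constitutive relative, had 52.5 ± 3.48, 47.8 ± 3.07 and 49.3 ± 1.17 CPM and was not called in any comparison. Without J1 library 1 it passed in the OCT4 line against J1, at -0.19 (edgeR adjusted p 0.0251).

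Of the Dishevelled genes, whose products carry the signal from Frizzled to the destruction complex, Dvl3 rose and Dvl2 fell in both stable lines. Dvl3 held 28.6, 37.7 and 33.2 CPM in J1, 73.5, 78.3 and 74.1 in OCT4 cells and 53.7, 56.8 and 52.9 in fusion cells. The 3 groups did not overlap, with J1 lowest. Dvl3 rose 2.27-fold in the OCT4 line (log2 fold change 1.18, SE 0.0856, edgeR adjusted p 1.32e-09) and 1.64-fold in the fusion line (log2 fold change 0.72, edgeR adjusted p 1.44e-06). Dvl2, on chromosome 11, had 57.8 ± 7.47, 34 ± 2.97 and 39.6 ± 2.94 CPM. Per length, Dvl2 held 49.7% to 52.1% of Dishevelled RNA in J1, 24.1% to 26.3% in OCT4 cells and 30.6% to 34.3% in fusion cells, while Dvl3 went from 27.7% to 29.3% in J1 to 54.0% to 55.9% and 43.7% to 44.5%. These shares are not adjusted for the shift of chromosome 11. With the chromosome median as an offset, Dvl2 stood at -0.28 in the OCT4 line against J1. In the fusion line it stood at -0.08 and was not called (edgeR adjusted p 0.458), while Dvl3 stood at 1.15 and 0.59. Dvl2 shares 1151 exon bases with the opposite-strand gene Acadvl, so its counts and the shares that use them are uncertain.

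Gsk3b, the kinase that phosphorylates β-catenin, had 48.2 ± 1.55, 92.6 ± 4.3 and 66.8 ± 2.02 CPM in J1, OCT4 and fusion cells. It rose 1.92-fold in the OCT4 line and 1.39-fold in the fusion line over J1 (edgeR adjusted p 8.06e-10 and 8.2e-06). Apc, the large scaffold of the destruction complex, had 254 ± 38.6, 209 ± 12.7 and 303 ± 11.6 CPM and was 1.45-fold higher in the fusion line than in the OCT4 line (edgeR adjusted p 6.48e-05). Nkd1, a Wnt-induced antagonist that binds Dishevelled, held 5.78, 5.75 and 6.39 CPM in J1, 4.52, 6.19 and 4.92 in OCT4 cells and 2.31, 2.9 and 2.57 in fusion cells. J1 and OCT4 libraries overlapped, and all EWS-OCT4 libraries were lower. Nkd1 fell 2.29-fold in the fusion line against J1 (log2 fold change -1.2, SE 0.164, edgeR adjusted p 6.5e-06), on chromosome 8 with its median of -0.41, and was 2-fold lower than in the OCT4 line (log2 fold change -1, SE 0.167, edgeR adjusted p 4.3e-05).

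Both stable lines carried a different mix of TCF/LEF factors from J1, the DNA-binding partners of β-catenin. Tcf7 and Lef1 fell in both, and Tcf7l1 and Tcf7l2 rose in both. Tcf7, which mostly activates targets when bound to β-catenin, held 140, 138 and 147 CPM in J1, 55.8, 57.7 and 56.9 in OCT4 cells and 36.4, 38.4 and 40.6 in fusion cells. The groups were well separated, with the fusion line lowest. Tcf7 fell 2.49-fold in the OCT4 line (log2 fold change -1.32, SE 0.0651, edgeR adjusted p 8.77e-12) and 3.68-fold in the fusion line (log2 fold change -1.88, SE 0.0668, edgeR adjusted p 3.11e-13), and was 1.48-fold lower in the fusion line than in the OCT4 line (edgeR adjusted p 9.49e-07).

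Lef1, an activating family member that is itself a Wnt target, held 5.99, 6.54 and 5.69 CPM in J1, 0.277, 0.0903 and 0.252 in OCT4 cells and 0.673, 0.476 and 0.716 in fusion cells. Its J1 libraries stood far above the other 6, which did not overlap between the stable lines. These levels came from 434, 14 and 42 counts over the 3 libraries of each group. Lef1 fell 28.6-fold in the OCT4 line (log2 fold change -4.84, SE 0.283, edgeR adjusted p 7.63e-11) and 9.71-fold in the fusion line (log2 fold change -3.28, SE 0.234, edgeR adjusted p 2.24e-09). It was 2.95-fold higher in the fusion line than in the OCT4 line (edgeR adjusted p 0.00188).

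Tcf7l1, the family's main repressor in ES cells, held 45.1, 75.8 and 58.5 CPM in J1, 113, 119 and 124 in OCT4 cells and 97, 102 and 100 in fusion cells. The J1 libraries were spread widely but all lay below the stable lines, and the OCT4 libraries lay above the EWS-OCT4 ones. Tcf7l1 rose 1.99-fold in the OCT4 line (log2 fold change 0.99, SE 0.143, edgeR adjusted p 8.19e-05) and 1.67-fold in the fusion line (log2 fold change 0.74, SE 0.143, edgeR adjusted p 0.00092). Between the stable lines the log2 fold change of -0.25 (SE 0.14) did not pass (edgeR adjusted p 0.134). Without J1 library 1 or J1 library 2, which are in neither group of this comparison, it passed at -0.25 (edgeR adjusted p 0.00447 and 0.00601). Such libraries enter through the filter, the scaling, the shared spread and the adjustment over genes. It also passed without the low-count filter (edgeR adjusted p 0.0128), with only the 6 libraries compared (0.000257) and with the chromosome median as an offset (0.04).

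Tcf7l2, a family member with activating and repressing forms, held 5.99, 9.58 and 9.83 CPM in J1, 32.9, 32.5 and 33 in OCT4 cells and 19, 23.3 and 22.7 in fusion cells. The groups did not overlap, and the OCT4 line was highest. Tcf7l2 rose 3.89-fold in the OCT4 line (log2 fold change 1.96, SE 0.138, edgeR adjusted p 2.35e-09) and 2.58-fold in the fusion line (log2 fold change 1.37, SE 0.14, edgeR adjusted p 3.89e-07).

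Per length, Tcf7 gave 71.2% to 80.6% of TCF/LEF RNA in the J1 libraries, 38.0% to 39.5% in the OCT4 line and 33.8% to 35.4% in the fusion line. Tcf7l1 gave 17.3% to 26.3%, 53.5% to 55.4% and 58.5% to 60.5%, so the leading factor changed from Tcf7 in J1 to Tcf7l1 in both stable lines. Tcf7l2 gave 1.03% to 1.54%, 6.6% to 6.96% and 5.31% to 6.15%. The summed RNA of the family fell from 66.3 to 73.6 CPM per kb in J1 to 53.9 to 57.0 in the OCT4 line and 40.8 to 43.7 in the fusion line. Tcf7 lies on chromosome 11, whose median log2 fold change against J1 was -0.49 in the OCT4 line and -0.46 in the fusion line. These shares and sums, and the change of leading factor read from them, are not adjusted for that shift. Whether Tcf7l1 would still lead in the stable lines after such an adjustment was not tested. With the chromosome median as an offset, Tcf7 stood at -0.83 and -1.42 in the OCT4 and fusion lines, and Tcf7l1 at 0.87 and 0.51.

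Sp5, whose 2 matches are printed above, averaged below 1 CPM in every group. It held 0.0803, 0.598 and 0.564 CPM in J1, 0.277, 0.407 and 0.588 in OCT4 cells and 0.769, 1.13 and 0.885 in fusion cells. The EWS-OCT4 libraries were the highest, and J1 and OCT4 libraries overlapped. The fusion line was called against J1 (log2 fold change 1.17, SE 0.464, edgeR adjusted p 0.0363) and against the OCT4 line (1.11, SE 0.465, edgeR adjusted p 0.0436). The first call was lost without J1 library 1 (0.67) and without EWS-OCT4 library 2 or 3 (1.02 and 1.21). The second was lost without J1 library 3 (1.13), OCT4 library 1 or 2 (0.89 and 1.08) and EWS-OCT4 library 2 or 3 (0.97 and 1.15). Both calls were also lost with DESeq2 (adjusted p 0.0917 and 0.0989) and with the chromosome median as an offset (edgeR adjusted p 0.0654 and 0.0531). The second was lost with limma-voom (adjusted p 0.0634) and upper-quartile scaling (edgeR adjusted p 0.0515) as well.

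**Figure D4:**
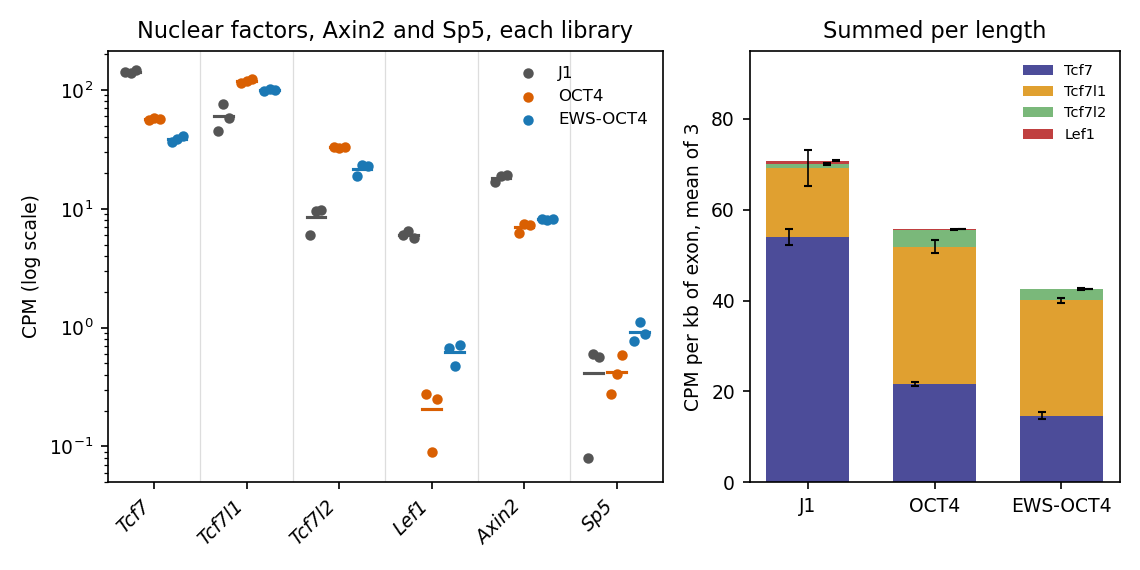
Left, CPM per library (log axis) of the TCF/LEF factors, Axin2 and Sp5, with points for libraries and short lines for means of 3, in grey for J1, orange for the OCT4 line and blue for the fusion line. Right, mean CPM per kb of exon of the 4 factors, stacked from 0, with bars for the SD of each factor (n = 3); Tcf7 fills most of the J1 column, and Tcf7l1 is the largest part of both others.

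Chromosome 11 carries 11 of the 57 genes, 10 of them tested. The median log2 fold change of its tested genes averaging 5 CPM or more was -0.49 in the OCT4 line and -0.46 in the fusion line against J1, beside -0.01 and 0.05 over all chromosomes. Of the 10, 6 were lower and 3 higher in each stable line than in J1. That is 90.0% called in each, beside 67.0% of all tested genes in the OCT4 line and 61.9% in the fusion line. Axin2, Tcf7 and Dvl2 were among those lower in both. With the chromosome median as an offset, Tcf7 stood at -0.83 and -1.42 and Axin2 at -0.89 and -0.7 in the OCT4 and fusion lines, all still called (edgeR adjusted p 1.48e-05 or less). Notum in the OCT4 line stood at -1.41 and Znrf3 at -0.62, and both calls were kept. Dvl2 stood at -0.28 in the OCT4 line (edgeR adjusted p 0.0145) and at -0.08 in the fusion line (edgeR adjusted p 0.458), and Fzd2 at -0.26 and -0.35 was no longer called in either (edgeR adjusted p 0.16 and 0.0759). Wnt3, Wnt3a and Wnt9a, on the same chromosome, were higher than J1 with or without the offset in the OCT4 line. The number of copies of chromosome 11 in these lines was not measured.

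**Figure D5:**
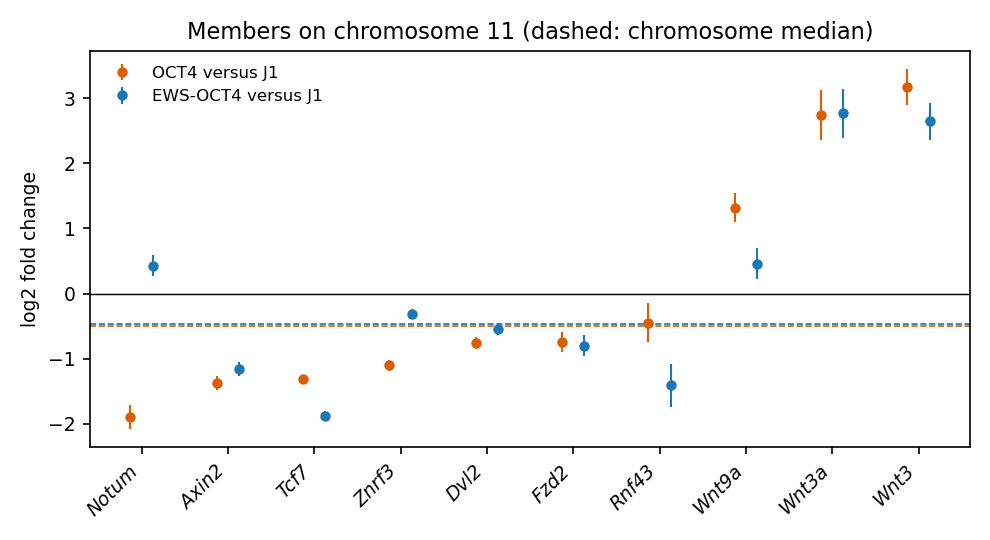
Log2 fold change against J1 of the 10 tested Wnt genes on chromosome 11, in the OCT4 line (orange) and the fusion line (blue), with bars for the standard error and dashed lines at the median of tested genes of that chromosome averaging 5 CPM or more, -0.49 and -0.46. Axin2 and Tcf7 lie below the dashed lines in both lines, Wnt3 and Wnt3a far above, and Notum lies on opposite sides of 0 in the stable lines.

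Among 69 other genes of the pathway, 62 could be tested. In the OCT4 line 25 were higher and 23 lower than in J1, in the fusion line 19 were higher and 22 lower than in J1, and 15 were higher and 31 lower in the fusion line than in the OCT4 line, with medians of -0.03, -0.08 and -0.25. The called shares of 77.4%, 66.1% and 74.2% were near the backgrounds of 67.0%, 61.9% and 66.5%. Lgr4, a receptor for R-spondins, which keep Znrf3 and Rnf43 in check, had 54 ± 5.95 CPM in J1, 22.2 ± 1.59 in OCT4 cells and 69.5 ± 3.55 in fusion cells. Its relative Lgr6 fell in both stable lines, from 11.8 ± 0.383 to 2.38 ± 0.131 and 1.57 ± 0.435 CPM (log2 fold change -2.31 and -2.92, edgeR adjusted p 5.52e-10 and 1.3e-10). Tle4, a co-repressor that TCF/LEF factors recruit, had 90.6 ± 5.89, 42.8 ± 2.03 and 108 ± 3.12 CPM and was higher in the fusion line than in the OCT4 line (log2 fold change 1.34, edgeR adjusted p 2.41e-11). Bcl9l, a β-catenin co-activator, went the other way, with 18.5 ± 4.55, 85.5 ± 6.3 and 30.8 ± 2.69 CPM. It rose 2.21 on the log2 scale in the OCT4 line over J1 (edgeR adjusted p 2.16e-08). Csnk1e, a kinase that acts on Dishevelled, was lower in the fusion line than in the OCT4 line (51.5 ± 1.3 beside 164 ± 2.77 CPM, log2 fold change -1.67, edgeR adjusted p 7.15e-12).

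Celsr1, a planar cell polarity cadherin in the same list, rose in both stable lines, from 15.8 ± 1.11 to 81.4 ± 4.64 and 41.8 ± 2.3 CPM, and the X-linked Gpc4, a glypican that binds Wnt ligands, from 14.5 ± 0.66 to 92.5 ± 0.762 and 36.8 ± 2.61. Their log2 fold changes in the OCT4 line were 2.36 and 2.68 (edgeR adjusted p 7.89e-14 and 9.42e-15). Celsr3 instead fell in the OCT4 line and rose in the fusion line, at 9.09 ± 0.887, 2.96 ± 0.37 and 18.9 ± 0.946 CPM (log2 fold change -1.62 and 1.05, edgeR adjusted p 5.3e-09 and 2e-07). Prickle1 and Wls, the carrier of Wnt ligands to the surface, were among the genes that rose in the fusion line over J1 (log2 fold change 1.47 and 1.12, edgeR adjusted p 1.24e-08 and 1.57e-05), while Prickle2 and Nkd2 fell (-1.44 and -1.47, edgeR adjusted p 8.86e-08 and 2.43e-06).

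Of 31 Wnt target genes from other tissues and stages, 26 could be tested. In the OCT4 line 8 were higher and 11 lower than in J1, in the fusion line 8 were higher and 6 lower than in J1, and 9 were higher and 11 lower in the fusion line than in the OCT4 line. The medians were -0.29, 0.03 and -0.24. The called shares were 73.1%, 53.8% and 76.9%, beside backgrounds of 67.0%, 61.9% and 66.5%, so the share in the fusion line against J1 was below that of all tested genes. Myc, a growth regulator, had 18.1 ± 1.11 CPM in J1, 6.55 ± 0.992 in OCT4 cells and 45.1 ± 0.178 in fusion cells, a log2 fold change of 2.78 between the stable lines (edgeR adjusted p 2.71e-13). Mycn, its relative, had 165 ± 5.38, 52.8 ± 2.13 and 118 ± 3.99 CPM and fell 1.64 on the log2 scale in the OCT4 line (log2 fold change -1.64, edgeR adjusted p 5.65e-13). Tnfrsf19, a receptor of the TNF family, fell in both stable lines, from 19.2 ± 2.09 to 7.03 ± 0.759 and 2.2 ± 0.37 CPM (log2 fold change -1.45 and -3.13, edgeR adjusted p 1.09e-08 and 8.98e-12).

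Cdx2, a target that is also a trophectoderm regulator and stands in that marker list, had 0.0581 ± 0.0508 CPM in J1, 7.96 ± 1.24 in OCT4 cells and 1.7 ± 0.301 in fusion cells. Cdx1, its relative in the posterior embryo, had 0.769 ± 0.374, 3.18 ± 0.389 and 2.32 ± 0.338 CPM. Jun had 5.1 ± 0.921, 22.5 ± 1.91 and 6.97 ± 0.889 CPM, and Ccn1, a matrix protein, had 5.56 ± 0.0487, 40.5 ± 0.687 and 20.9 ± 1.55. Cdx1, Jun and Ccn1 rose in the OCT4 line by 2.02, 2.14 and 2.86 on the log2 scale (edgeR adjusted p 4.06e-06, 1.35e-10 and 2.78e-14). Fosl1 fell there from 3.68 ± 0.303 to 0.839 ± 0.21 CPM (log2 fold change -2.12, edgeR adjusted p 2.4e-07).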

How the data were processed

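RNA-seq of total RNA was measured in 9 libraries of 3 mouse ES cell lines. Each library's table, as deposited by the authors, gives unnormalized whole-number counts by gene symbol. Tools listed without roles in the submitters' processing notes are GATK, STAR, Salmon and fastp, with build GRCm39. For gene annotation, strand and molecular identifiers, the handling is not given in the sources used here. Groups came from the sample titles.

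Genes were kept by filterByExpr (minimum count 10, minimum total 15), scaled by TMM (factors 0.958 to 1.03) and fitted over all 9 libraries with group as the only term in edgeR 4.0.16 (R 4.3.3), by robust glmQLFit and glmQLFTest, with Benjamini-Hochberg adjustment at 0.05 over 16562 genes. The SE of a log2 fold change is its absolute value over the square root of F. In simulated counts run through the same fit, 20.4% to 25% of genes changed 1.25-fold were called. Of those changed 2-fold, 72.3% to 86% were called, and of unchanged genes 0.0188% to 0.1%. Far fewer genes were changed there than were called in these data, so the fit under such broad change was not tested. Exon lengths are from GENCODE release M21 (57 of 57 genes matched), and chromosomes are from RefSeq (16063 of 16562 tested genes). Each length is the union of all annotated exons of a gene, so per-length levels and shares compared between genes depend on that annotation. Replicate libraries differed beyond sampling noise (chi-square divided by its degrees of freedom, 3.21 to 29.2).

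The members and the gene lists were chosen with earlier results of these data known. Every library is given for Wnt genes called with a log2 fold change of 1 or more, no overlap of the groups and an average of 3 CPM or more in the higher group, and for Ctnnb1, Tcf7l1, Axin2, Sp5, Lef1 and Porcn. Pathway and target genes past the same bounds were eligible for naming, up to 5 a direction. Alternatives were RLE and upper-quartile scaling, no filter, a minimum of 5 CPM in 3 libraries, DESeq2 1.42.0, limma-voom (limma 3.58.1), the 6 libraries compared alone, the replicate number as a block, each library left out, and, added after seeing the data, the chromosome median as an offset.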

Additional observations from a re-analysis of the deposited data

How the results depend on the processing

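Of the 3282 alternative values of single genes, 3133 kept their direction and side of the threshold, 90 were no longer called, 27 became called and 32 changed sign. Counts of called Wnt genes stayed within 1.5 times under every alternative except a minimum of 5 CPM in 3 libraries, where fewer genes were tested. There 10 Wnt genes were lower in EWS-OCT4 versus J1, 10 higher in OCT4 versus J1 and 10 lower in EWS-OCT4 versus OCT4, and for target genes 5 were higher and 7 lower in OCT4 versus J1 and 5 higher in EWS-OCT4 versus OCT4. Leaving out each library gave, higher and lower, 19 to 23 and 16 to 17 Wnt genes in EWS-OCT4 versus J1, 17 to 20 and 16 to 19 in OCT4 versus J1, and 14 to 19 and 14 to 19 in EWS-OCT4 versus OCT4.

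Deviations of same-numbered libraries of different groups correlated at -3.17e-05 to 0.0737. Differently numbered libraries were not compared, so these values do not settle whether the replicate numbers pair the libraries. With the replicate block, 23 and 17 Wnt genes were higher and lower in EWS-OCT4 versus J1, 19 and 18 in OCT4 versus J1 and 18 and 18 in EWS-OCT4 versus OCT4. Fzd5 in EWS-OCT4 versus J1 (0.14, adjusted p 0.0487) and Dvl2 in EWS-OCT4 versus OCT4 (0.22, adjusted p 0.00906) became called.

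Sign changes, as edgeR log2 fold changes, were as follows, and none passed the threshold. With the chromosome median as an offset, EWS-OCT4 versus J1 gave -0.0454 for Ctnnb1 and 0.147 for Znrf3. OCT4 versus J1 gave -0.0517 for Ctnnb1, -0.00615 for Lrp6, 0.302 for Nkd1, 0.0339 for Rnf43, 0.058 for Sfrp1 and -0.0234 for Sp5. EWS-OCT4 versus OCT4 gave -0.0581 for Axin1, -0.0862 for Fzd8, -0.0864 for Lrp5 and -0.00397 for Wnt3a. Of these, Ctnnb1 and Znrf3 in EWS-OCT4 versus J1 and Sfrp1 in OCT4 versus J1 were called without the offset. Leaving out each library gave a range across 0 only for genes that were not called: in OCT4 versus J1, Ctnnb1 (-0.0274 to 0.0735) and Sp5 (-0.447 to 0.46), and in EWS-OCT4 versus OCT4, Axin1 (-0.00849 to 0.0827), Fzd2 (-0.107 to 0.00201), Fzd8 (-0.12 to 0.215), Fzd9 (-0.195 to 0.0144), Lrp5 (-0.0131 to 0.04) and Wnt3a (-0.121 to 0.155). Upper-quartile scaling gave -0.00525 for Fzd8, -0.0364 for Lrp5 and -0.0177 for Wnt3a in that comparison, and the 5 CPM minimum gave -0.0398 for Lrp5. The cause of these sign changes was not tested. Low counts limit some values: in J1 Wnt8a rests on 7 counts and Wnt3a on 13, and in EWS-OCT4 cells Dkk1 rests on 4.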
